A study of Mus musculus with 2 samples.

Results

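Cyclin-dependent kinase (CDK) inhibitors are the proteins that hold the cell cycle back, and the 7 mouse genes that encode them were followed through every cell class of an injured limb with and without radiation. The genes were matched by symbol among the 32285 genes of the feature list, of which 26688 had at least 1 transcript counted in either library. They are Cdkn1a (p21), Cdkn1b (p27), Cdkn1c (p57), Cdkn2a (p16 and p19Arf), Cdkn2b (p15), Cdkn2c (p18) and Cdkn2d (p19Ink4d), and all 7 were found.

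The cells came from male C57BL/6 mice (C57BL/6J in the protocol) of 8 to 10 weeks that had all received a dorsal burn over 30% of the body surface together with a cut Achilles tendon in the left hindlimb, an injury after which bone forms in soft tissue (traumatic heterotopic ossification). In the irradiated group a single dose of 7 Gy was aimed at the injury through a collimator of 2 cm, and in the control group the same injury received no radiation. The tendon injury site was taken at day 7 in both groups and unsorted cells were sequenced as 1 library each. Per the protocol, each treatment arm had 10 mice, with radiation given 1 or 3 days after surgery, and the series description points to day 3 in wording that is not certain. How many mice were pooled in a library is not stated. With 1 library per group, library and treatment cannot be told apart and no test between groups was possible.

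CDK inhibitors fall into 2 families. The CIP/KIP proteins p21, p27 and p57 bind complexes of cyclins with CDKs throughout the cycle, while the INK4 proteins p15, p16, p18 and p19Ink4d bind CDK4 and CDK6 alone and keep them from D-type cyclins. Cdkn1a is the best known transcriptional target of p53, the protein that stops division after DNA damage, and its transcript is known to rise after irradiation. Cdkn2a also encodes p19Arf, which blocks the p53 inhibitor MDM2, and Cdkn1c is an imprinted gene expressed mainly from the maternal allele.

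Cdkn1a (ENSMUSG00000023067) lies on the plus strand of GRCm38 chromosome 17 from base 29090976 to base 29100727. RefSeq lists 2 start sites for it on that build, and the 250 bases before each are printed because only the upstream one holds the core letters of the p53 motif. In the first sequence, chr17:29090729-29090978 on the plus strand, capitals mark a pair of p53 core motifs (CATGNNNNNNCATG), which ends 34 bases before the start site. In the second, chr17:29093519-29093768 on the plus strand, capitals mark GC boxes (GGGCGG), 98 and 40 bases before the start site.
Cdkn1a upstream start: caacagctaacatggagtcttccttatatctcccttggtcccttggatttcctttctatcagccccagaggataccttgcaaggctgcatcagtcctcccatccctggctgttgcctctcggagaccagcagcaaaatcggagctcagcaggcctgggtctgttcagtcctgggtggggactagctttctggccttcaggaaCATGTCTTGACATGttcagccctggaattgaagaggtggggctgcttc
Cdkn1a downstream start: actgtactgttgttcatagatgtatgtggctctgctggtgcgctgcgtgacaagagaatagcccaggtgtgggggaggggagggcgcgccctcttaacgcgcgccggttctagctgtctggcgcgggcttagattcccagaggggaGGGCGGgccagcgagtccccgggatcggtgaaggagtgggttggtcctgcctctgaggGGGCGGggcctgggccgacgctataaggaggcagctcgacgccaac
The p53 core pair was found, on either strand, in 234 of the 32851 mouse promoter sequences of the RefSeq table, which run from 250 bases before to 50 bases after a start site (0.712%), and the GC box in 11714 of them (35.7%). None of the promoter entries of Cdkn1b, Cdkn2a, Cdkn2b, Cdkn2c or Cdkn2d held the core pair. The match describes letters only, and since the libraries read the 3′ ends of transcripts they do not show which start site was used.

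The other CIP/KIP genes were Cdkn1b (ENSMUSG00000003031, chromosome 6, bases 134920401 to 134925513, plus strand) and Cdkn1c (ENSMUSG00000037664, chromosome 7, bases 143458339 to 143461050, minus strand). Of the INK4 genes, Cdkn2a (ENSMUSG00000044303, bases 89274471 to 89294653), Cdkn2b (ENSMUSG00000073802, bases 89306299 to 89311039) and Cdkn2c (ENSMUSG00000028551, bases 109660876 to 109667189) lie on the minus strand of chromosome 4. Cdkn2d (ENSMUSG00000096472) lies on the minus strand of chromosome 9 from base 21288410 to base 21291407. Cdkn2a has 2 coding transcripts with separate first exons and a shared last exon, so 3′ tags cannot tell the p16 transcript from the p19Arf transcript.

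The deposited libraries held 8302 irradiated and 11369 control barcodes with 111753092 and 180080740 transcripts counted by unique molecular identifier (UMI). After filters 7126 irradiated and 8744 control cells remained, with medians of 10134.5 and 13242 UMIs. Mitochondrial transcripts exceeded 10% in 6.13% of irradiated and 14.9% of control barcodes, and 21 of the kept cells' barcodes occurred in both libraries. The cells formed 32 clusters, and 12 classes that had 50 or more cells from each library were compared. Classes carry the ending "-like" because their names rest on transcripts. Cluster 7, led by Arg1 and Mmp12, expressed all 9 macrophage markers and had a lymphocyte marker among its leading genes. Cluster 8, led by Acp5, Mmp9 and Atp6v0d2, carried osteoclast and macrophage markers. Both are given by number.

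A level below is the share of a class's UMIs in 1 library, as counts per 1000000 UMIs (CPM), and its brackets hold a 95% Poisson interval for counting error only. Each UMI stands for 1 captured transcript whatever its length, so levels of different genes can be set side by side, although capture can differ between genes. A gene was measured in a class when it had at least 20 UMIs over both libraries. It was called higher or lower in irradiated cells when its level differed by at least 1.5-fold and the interval of the ratio left out equality. This rule of size stands in for a test.

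Across the 12 classes, 65 of 84 combinations of a CDK inhibitor and a class were measured. In the irradiated library 11 were called higher, 14 lower and 40 stayed within the rule. Cdkn1a accounted for 10 of the 11 higher calls, with 1 more for Cdkn1c in endothelial-like cells. The 14 lower calls were 6 for Cdkn2c, 3 for Cdkn1c, 2 each for Cdkn2a and Cdkn2b and 1 for Cdkn2d, and Cdkn1b had no call in any class. The transcript of p21 was thus the only member higher in most classes.

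**Figure D1:**
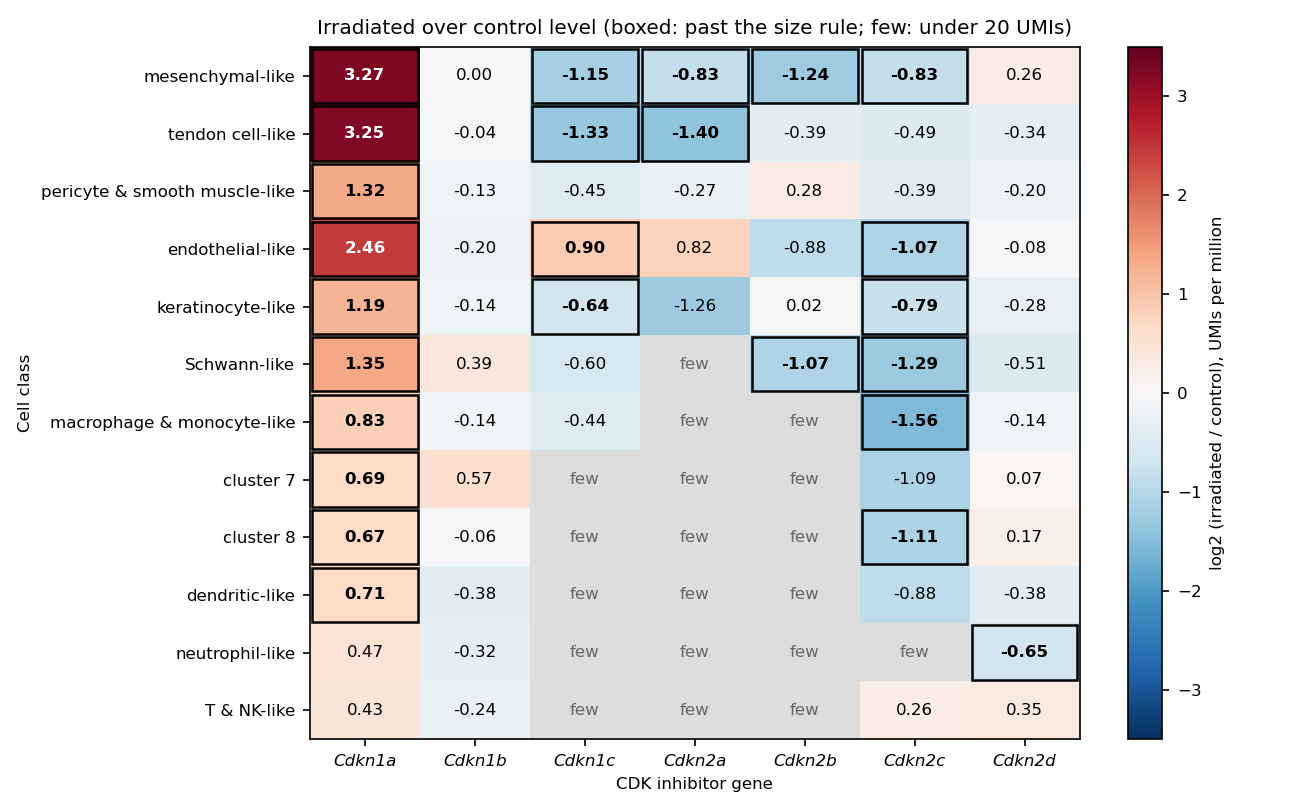
Log2 ratio of irradiated over control level (colour and number) for each of the 7 CDK inhibitor genes (columns) in 12 cell classes (rows), with a box around ratios past the size rule and "few" where fewer than 20 UMIs were counted. The Cdkn1a column is boxed as higher in 10 of 12 classes, while the boxes in the INK4 columns are all lower.

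The mesenchymal-like class had the most calls. In mesenchymal-like cells 1 of 7 measured members was called higher and 4 were called lower, where 12.0% of all 16759 genes measured were called higher and 8.07% lower. In tendon cell-like cells 1 of 7 was higher and 2 were lower, against 8.79% and 5.76% of all genes. Pericyte and smooth muscle-like cells had 1 of 7 higher and none lower, against 7.74% and 6.13%. In endothelial-like cells 2 of 7 were higher and 1 was lower, against 9.18% and 3.56%. The share of lower members in mesenchymal-like cells was thus several times that of all genes, but it rests on 7 genes. The Cdkn2a call of this class was lost with clusters weighted alike, and the Cdkn2c call after thinning.

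In keratinocyte-like cells 1 of 7 was higher and 2 were lower, against 7.35% and 6.83% of all genes. In Schwann-like cells 1 of 6 was higher and 2 were lower, against 7.20% and 7.63%. The macrophage and monocyte-like class had 1 of 5 higher and 1 lower, against 5.79% and 11.2%. Immune classes had few measured members, since the transcripts of Cdkn1c, Cdkn2a and Cdkn2b were scarce there. Cluster 7 had 1 of 4 higher and none lower, against 7.00% and 8.69%, and cluster 8 had 1 of 4 higher and 1 lower, against 10.8% and 13.7%. Dendritic-like cells had 1 of 4 higher and none lower, against 6.22% and 5.85%. Neutrophil-like cells had none of 3 higher and 1 lower, against 5.26% and 22.4%, and T and NK-like cells had none of 4 past the rule in either direction, against 5.47% and 5.92%. In neutrophil-like cells the ratio of all genes was itself shifted, with a median log2 ratio of -0.32, and its lower call is to be read against that shift.

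Cdkn1a was higher in the irradiated library by the widest margin in connective tissue cells. Mesenchymal-like cells held 363 CPM in the irradiated library (4645 UMIs) and 37.6 CPM in the control library (1911 UMIs), which is 9.67-fold higher (log2 3.27, interval 3.20 to 3.35). Tendon cell-like cells held 290 CPM irradiated and 30.6 CPM control, 9.50-fold higher. Endothelial-like cells held 590 CPM irradiated and 107 CPM control, 5.50-fold higher (log2 2.46, interval 2.36 to 2.56). In these 3 classes no interval of one library came near that of the other.

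A middle group of classes differed by a little over 1 log2 unit. Schwann-like cells held 358 CPM irradiated and 141 CPM control (log2 1.35), pericyte and smooth muscle-like cells held 376 and 151 CPM (log2 1.32), and keratinocyte-like cells held 281 and 124 CPM (log2 1.19, interval 1.14 to 1.23). The myeloid classes started from a higher control level and differed less. Macrophage and monocyte-like cells held 720 CPM irradiated and 405 CPM control, a log2 ratio of 0.83 (interval 0.79 to 0.88). Dendritic-like cells held 609 and 373 CPM (log2 0.71), cluster 7 held 689 and 427 CPM (log2 0.69) and cluster 8 held 483 and 303 CPM (log2 0.67). With every cell weighted alike the dendritic-like class (0.49) and cluster 8 (0.44) were within the rule. The ratio stayed under the 1.5-fold limit in neutrophil-like cells, at 868 CPM irradiated and 627 CPM control, and in T and NK-like cells, at 201 and 150 CPM. Median-of-ratios scaling took the neutrophil-like ratio past it, to 0.79 in place of 0.47, and thinning brought the Schwann-like ratio to 0.77. Every class was higher in the irradiated library in direction, and the 3 classes lowest in the control library showed the widest ratios.

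The order of Cdkn1a levels between classes changed with the library. In irradiated cells neutrophil-like cells stood highest (844 to 892 CPM), followed by macrophage and monocyte-like cells (707 to 733) and cluster 7 (667 to 711), whose intervals overlapped each other. Dendritic-like cells (576 to 644) and endothelial-like cells (570 to 611) overlapped as well, and cluster 8 came next (463 to 503). Pericyte and smooth muscle-like (356 to 396), mesenchymal-like (353 to 374) and Schwann-like cells (331 to 388) could not be told apart, nor could tendon cell-like (274 to 307) and keratinocyte-like cells (276 to 287). T and NK-like cells were lowest in the irradiated library.

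In control cells neutrophil-like cells again stood highest (596 to 659 CPM), and cluster 7 (393 to 463), macrophage and monocyte-like cells (394 to 415) and dendritic-like cells (344 to 405) overlapped below them. Cluster 8 lay apart (279 to 328). Pericyte and smooth muscle-like (139 to 162), T and NK-like (122 to 182), Schwann-like (121 to 162) and keratinocyte-like cells (121 to 127) lay close together. Endothelial-like (101 to 114), mesenchymal-like (35.9 to 39.3) and tendon cell-like cells (27.2 to 34.2) were the lowest, and the last 2 did not overlap. Of these 3 classes, the endothelial-like and mesenchymal-like ones thus lay in the middle of the irradiated order, while tendon cell-like cells stood beside keratinocyte-like cells near its low end.

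**Figure D2:**
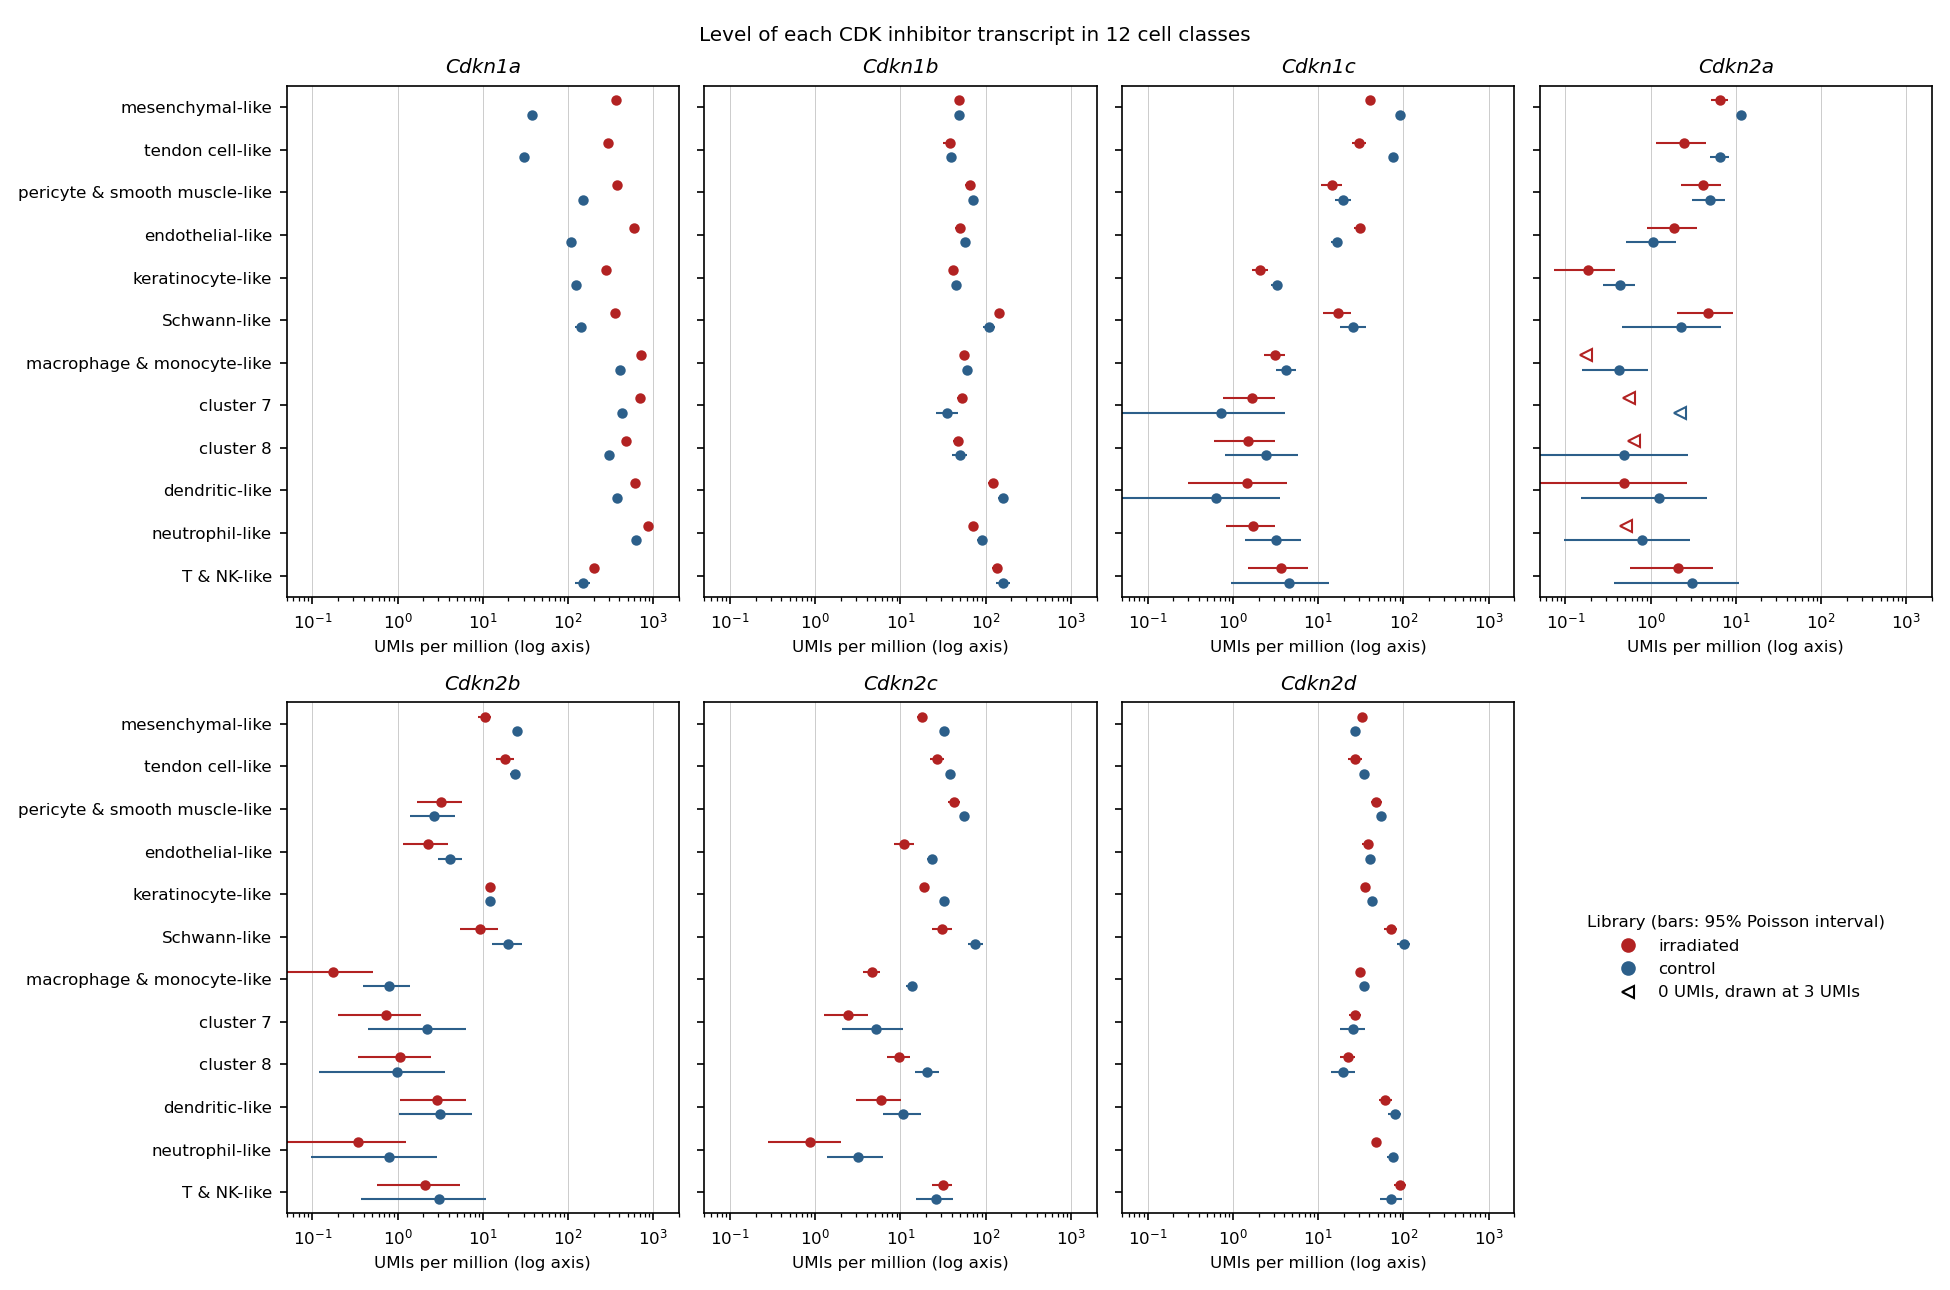
Level of each CDK inhibitor transcript (CPM, log axis) in 12 cell classes (rows), with irradiated and control libraries as separate points and 95% Poisson intervals as bars. For Cdkn1a the irradiated points lie between 201 and 868 CPM, while the control points spread down to 30.6 CPM in tendon cell-like cells.

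Cdkn1a was also seen in more cells. In mesenchymal-like cells 80.6% of irradiated cells (95% Clopper-Pearson interval 76.9% to 84.0%) and 36.5% of control cells (34.4% to 38.7%) had at least 1 Cdkn1a UMI. Those cells averaged 11.3 and 2.67 UMIs, with at most 106 and 32 in a single cell. Because shares depend on depth (medians of 21282 and 25598 UMIs in this class), every cell was also thinned at random to 2000 UMIs, leaving out 16 irradiated and 47 control cells below that. After thinning, 42.2% of irradiated (37.8% to 46.7%) and 6.86% of control mesenchymal-like cells (5.76% to 8.08%) had a Cdkn1a UMI. At equal depth the share of cells with the transcript was therefore still several times higher in the irradiated library.

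The same held in most other classes with wide ratios, where the intervals of thinned shares did not overlap. Schwann-like cells were an exception, with thinned shares of 49.6% irradiated and 33.3% control whose intervals overlapped. Thinned shares were 36.2% irradiated and 4.97% control in tendon cell-like cells (80.3% and 27.99% unthinned), and in the endothelial-like class they were 60.2% and 20% (90.3% and 54.3% unthinned). The pericyte and smooth muscle-like class had 45.6% and 23.8% (81.0% and 61.0% unthinned) and the keratinocyte-like class 36.6% and 19.3% (85.6% and 68.3% unthinned). The macrophage and monocyte-like class had 65.3% and 51.3% (91.2% and 81.4% unthinned), and in T and NK-like cells, where the intervals overlapped, 28.7% and 24.6% (57.4% and 38.2% unthinned). No class lacked Cdkn1a, so no class gives a background share for it. Cells with 3 or more Cdkn1a UMIs after thinning made up 8.69% of irradiated and 0.26% of control mesenchymal-like cells. In the endothelial-like class these shares were 18.4% and 1.44%.

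**Figure D3:**
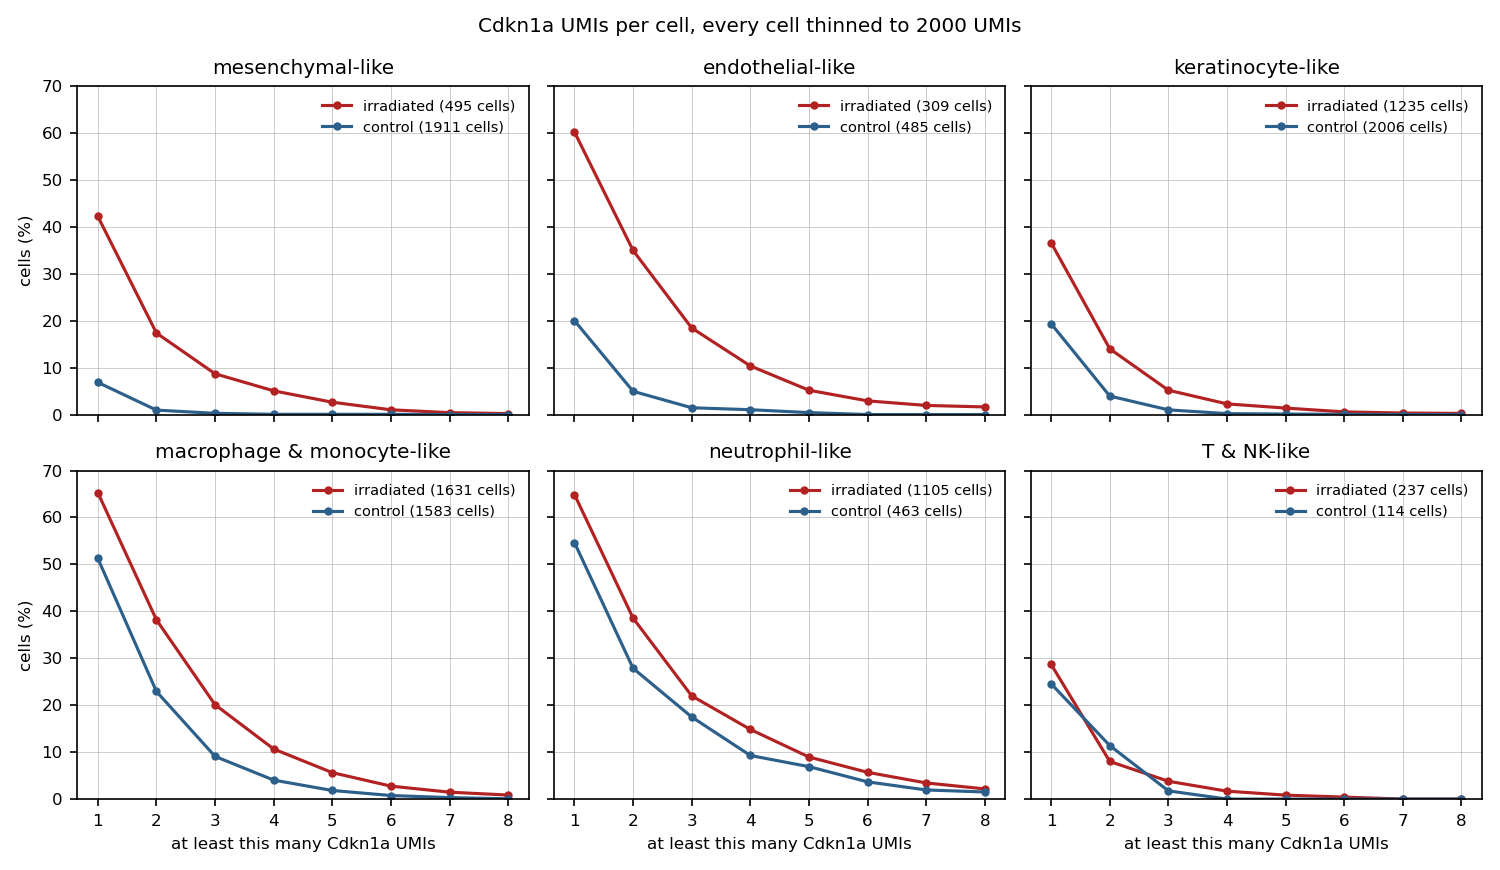
Share of cells (%) with at least a given number of Cdkn1a UMIs in 6 classes, with separate lines for irradiated and control cells. Every cell with 2000 or more UMIs was thinned to 2000, and the others were left out. This kept 1105 of 1270 irradiated and 463 of 836 control neutrophil-like cells. At 1 UMI the lines stand at 42.2% and 6.86% in mesenchymal-like cells and at 65.3% and 51.3% in macrophage and monocyte-like cells.

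Clusters within a class differed in Cdkn1a, and the 2 libraries did not fill them alike. Irradiated mesenchymal-like cells lay mostly in cluster 5 (Clec3b, Sfrp4 and Pi16; 63.6% of irradiated and 24.1% of control cells), while control cells lay mostly in cluster 3 (Pdzrn4, Ptx3 and Sfrp2; 9.4% and 40.4%) and cluster 6 (Crabp1 and Cxcl5; 19.8% and 33.9%). Cdkn1a stood at 399 CPM irradiated and 56.2 CPM control in cluster 5 (log2 2.83), at 194 and 28.6 CPM in cluster 3 (log2 2.77) and at 357 and 36.4 CPM in cluster 6 (log2 3.30). The small cluster 28 (Hpse2 and Gpc5) held 801 and 219 CPM (log2 1.87). Each of the 4 clusters was called higher on its own, but with the 4 clusters weighted alike the class ratio was 5.15-fold (log2 2.36) in place of 9.67-fold.

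Within the keratinocyte-like class the ratio was widest in clusters 18 and 17. Cluster 18 (Krt15) held 390 CPM irradiated and 92.2 CPM control (log2 2.08), and cluster 17 (Aldh3a1 and Lhx2) held 427 and 110 CPM (log2 1.96). In cluster 10, with the basal genes Krt5 and Krt14, the levels were 102 and 78.8 CPM (log2 0.37), and in cluster 11 (Krt2 and Lor) 290 and 202 CPM (log2 0.52), both within the rule. Among macrophage and monocyte-like cells only cluster 2 (Ccl8, Mrc1 and C1qc) passed it, with 884 CPM irradiated and 321 CPM control (log2 1.46). The other 2 clusters, 0 (H2-Aa and Cd74) at 668 and 470 CPM and 13 (Chil3, Plac8 and Ly6c2) at 611 and 583 CPM, stayed within it. Schwann-like cells split in the same way, with 260 and 85.3 CPM (log2 1.61) in cluster 22 and 888 and 718 CPM (log2 0.31) in cluster 27, whose cells expressed the myelin gene Mbp.

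Transcripts of other cell types differed between the libraries in both directions. The summed level of the 9 macrophage markers was 273 CPM in irradiated and 111 CPM in control mesenchymal-like cells, with 9 of 9 higher, and 404 and 116 CPM in tendon cell-like cells, with 9 of 9 higher. It was 220 and 145 CPM in endothelial-like cells, with 6 higher, and 536 and 69.6 CPM in Schwann-like cells, with 5 higher. In keratinocyte-like cells it was 106 and 121 CPM, with 2 higher and 2 lower. Globin and other red cell markers, a list of 5, summed to 412 and 57.4 CPM in mesenchymal-like and 2398 and 10.1 CPM in dendritic-like cells. Their sum was lower in the irradiated library in pericyte and smooth muscle-like cells, at 238 and 583 CPM, and in neutrophil-like cells, at 876 and 1261 CPM. The 9 keratinocyte markers summed to less in the irradiated library in each of the 11 other classes, at 136 to 345 CPM irradiated and 362 to 972 CPM control. In macrophage and monocyte-like cells 8 of the 9 were called lower, and in mesenchymal-like cells 6. Free RNA was estimated from marker panels of other cell types: Krt5 with Krt14, Col1a1 with Col1a2 and Col3a1, or C1qa with C1qb and C1qc. By the panel with the largest estimate, it would give 33.8 of the 363 irradiated CPM of Cdkn1a in mesenchymal-like cells. The estimates were 26.7 of 590 in endothelial-like, 55.8 of 290 in tendon cell-like and 102 of 358 in Schwann-like cells. Neutrophil and red cell markers were not used, so these values are not upper limits. Subtracting RNA of macrophage and monocyte-like cells in proportion to C1qa, C1qb and C1qc kept all 48 ratios it could be applied to within their intervals. RNA of other cell types was not subtracted. Leaving haemoglobin, mitochondrial and ribosomal genes out of the totals changed none of the 65 calls.

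Cdkn1b, which encodes the p27 protein of resting cells, was within the rule in all 12 classes. Mesenchymal-like cells held 48.5 CPM in each library (620 irradiated and 2464 control UMIs), with a log2 ratio of 0.00 and an interval of -0.13 to 0.13. The highest levels were found in Schwann-like cells, at 144 CPM irradiated and 110 CPM control, in T and NK-like cells, at 136 and 160 CPM, and in dendritic-like cells, at 122 and 158 CPM. The lowest irradiated level was 37.7 CPM in tendon cell-like cells, against 38.7 CPM in control cells. The interval in mesenchymal-like cells leaves out any difference of 1.5-fold in either direction. The ratio of Schwann-like cells depended on weighting: it was 0.39 as summed, and it passed the rule at 0.87 with every cell weighted alike and at 0.79 after thinning.

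Cdkn1c, the imprinted p57 gene, was a transcript of connective tissue cells and was lower there in the irradiated library. Mesenchymal-like cells held 40.8 CPM irradiated (522 UMIs) and 90.7 CPM control (4610 UMIs), a log2 ratio of -1.15 (interval -1.28 to -1.02). Tendon cell-like cells held 30.3 and 76.1 CPM (log2 -1.33). Cells with a Cdkn1c UMI made up 37.6% of irradiated (33.4% to 41.9%) and 58.1% of control mesenchymal-like cells (55.9% to 60.3%), and 9.29% and 15.1% after thinning. In macrophage and monocyte-like cells, which are not known for this gene, 2.69% and 3.31% of cells had a UMI at median depths of 9806.5 and 7738.5, and 0.55% and 0.44% after thinning. The mesenchymal-like shares thus lay far above that background in both libraries.

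The lower level of Cdkn1c was seen within the large mesenchymal-like clusters. Cluster 5 had the highest level, at 66.3 CPM irradiated and 195 CPM control (log2 -1.55), followed by cluster 3 at 18.2 and 77.1 CPM (log2 -2.08) and cluster 6 at 11.8 and 59.7 CPM (log2 -2.34). Each of these ratios was further from 0 than that of the whole class, and irradiated cells lay mostly in the cluster where Cdkn1c was highest. Without cluster 5 the class ratio was -2.08. The small cluster 28 stayed within the rule, at 55.6 and 43.8 CPM. A gene on the opposite strand overlaps Cdkn1c (Gm44732), but it had 0 irradiated and 2 control UMIs in all kept cells, against 1149 and 6089 for Cdkn1c.

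Endothelial-like cells went the other way, with 30.7 CPM irradiated (163 UMIs) and 16.5 CPM control (154 UMIs), a log2 ratio of 0.90 (interval 0.57 to 1.23). A finer clustering split nearly all of this class in 3. Its part with high Gpihbp1, a gene of capillary endothelium, made up 33.5% of irradiated and 11.2% of control cells of the class and held 89.4 and 66.4 CPM of Cdkn1c. The same part had the most Rgs5, a pericyte marker, at 338 CPM irradiated and 94.4 CPM control, against 34.6 CPM or less elsewhere in the class. The 8 pericyte and smooth muscle markers summed to 117 and 41.9 CPM over the class, and their part in its Cdkn1c ratio was not tested. The part with high Selp, a venular gene, held 8.34 and 9.85 CPM, and the remaining cells 17.3 and 13.9 CPM. Classes drawn at the finer resolution left the Gpihbp1 part out of the endothelial-like class, which then had 211 irradiated and 444 control cells and a ratio of 0.07, within the rule. With the whole class thinned the ratio was 1.65. Cdkn1a was higher in the irradiated library in all 3 parts, at 1034 CPM irradiated and 191 CPM control in the Gpihbp1 part, 567 and 117 CPM in the Selp part and 319 and 80.9 CPM in the remaining cells.

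In keratinocyte-like cells Cdkn1c stood at 2.10 CPM irradiated and 3.26 CPM control. Free RNA alone was estimated to give 0.42 and 2.64 CPM there, and the ratio turned from -0.64 to 0.70 after thinning. The control level thus lay near the estimate for free RNA and the irradiated level above it, and no direction is read from this class. Schwann-like cells (16.9 and 25.7 CPM), the pericyte and smooth muscle-like class (14.4 and 19.7 CPM) and macrophage and monocyte-like cells (3.11 and 4.21 CPM) stayed within the rule. In the other immune classes and clusters 7 and 8 fewer than 20 UMIs were counted.

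Of the INK4 genes, Cdkn2a and Cdkn2b are neighbours on chromosome 4. Their highest class levels were 11.5 and 24.9 CPM, both in control mesenchymal-like cells. Cdkn2a, the p16 and p19Arf gene that marks senescent cells in many tissues, was not called higher in any irradiated class. Mesenchymal-like cells held 6.49 CPM irradiated (83 UMIs) and 11.5 CPM control (585 UMIs), a log2 ratio of -0.83 (interval -1.17 to -0.49). A UMI was seen in 9.78% of irradiated (7.35% to 12.7%) and 17.9% of control cells of this class (16.2% to 19.6%), and in 0.61% and 2.62% after thinning. In macrophage and monocyte-like cells 0 of 1708 irradiated cells had one, which allows a share of up to 0.176%, and 0.36% of control cells did. The lower call in mesenchymal-like cells was lost without cluster 5 (log2 -0.49) and with clusters weighted alike (-0.58), and after thinning the ratio was -2.11.

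Tendon cell-like cells held 2.45 CPM of Cdkn2a irradiated (10 UMIs) and 6.44 CPM control (63 UMIs), called lower at -1.40, but this was within the rule at -0.79 when classes were drawn at the finer resolution. The pericyte and smooth muscle-like class (4.07 and 4.92 CPM) and the endothelial-like class (1.89 and 1.07 CPM) were within the rule. Keratinocyte-like cells had 7 irradiated and 23 control UMIs, at 0.18 and 0.44 CPM (log2 -1.26), where free RNA was estimated to give 0.05 and 0.32 CPM. That ratio passed the rule as lower under several alternatives, such as doublets kept (-1.67), but it rests on few UMIs and its control level lay near the free RNA estimate, so no direction is read from it. No Cdkn2a UMI was seen in 519 irradiated cells of cluster 7, 465 of cluster 8 or 1270 of the neutrophil-like class, which allows shares of up to 0.578%, 0.645% and 0.236%. At these depths a difference in those classes was not detectable.

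Cdkn2b, the p15 gene that TGF-beta induces in epithelial cells, was lower in irradiated mesenchymal-like cells, at 10.6 CPM (135 UMIs) and 24.9 CPM in control cells (1267 UMIs), with a log2 ratio of -1.24 (interval -1.51 to -0.98). A UMI was seen in 16.2% of irradiated (13.1% to 19.7%) and 35.2% of control cells (33.1% to 37.4%), and in 1.82% and 4.92% after thinning, while in macrophage and monocyte-like cells the unthinned shares were 0.18% and 0.54%. The ratio was -1.35 in cluster 5 (6.99 and 17.9 CPM) and -1.19 in cluster 6 (12.1 and 27.6 CPM), and stayed within the rule in cluster 3 (20.2 and 25.6 CPM). In tendon cell-like cells, at 18.3 and 24.0 CPM, the ratio of -0.39 was within the rule. A lower call was therefore not seen in every connective tissue cluster.

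Keratinocyte-like cells held Cdkn2b at 12.3 CPM irradiated and 12.1 CPM control, with a log2 ratio of 0.02 (interval -0.16 to 0.19). The transcript was concentrated in cluster 11 (45.9 and 39.0 CPM) and in cluster 15 (Krt6b and Krt16; 19.5 and 13.4 CPM). Schwann-like cells had 16 irradiated and 26 control UMIs. They were called lower at -1.07, but the ratio was -0.33 with every cell weighted alike and 0.73 after thinning, where under 20 UMIs were left. No direction is read from that class.

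Cdkn2c, the p18 gene, was lower in more irradiated classes than any other member. Macrophage and monocyte-like cells held 4.64 CPM irradiated (79 UMIs) and 13.6 CPM control (191 UMIs), a log2 ratio of -1.56 (interval -1.95 to -1.17). Schwann-like cells held 30.9 and 75.6 CPM (log2 -1.29), cluster 8 held 9.6 and 20.7 CPM (log2 -1.11) and endothelial-like cells held 11.1 and 23.4 CPM (log2 -1.07). Mesenchymal-like cells held 18.1 and 32.2 CPM (log2 -0.83) and the keratinocyte-like class held 19.0 and 32.8 CPM (log2 -0.79). Ratios of tendon cell-like cells (27.1 and 38.1 CPM, log2 -0.49) and the pericyte and smooth muscle-like class (42.9 and 56.2 CPM, log2 -0.39) stayed within the rule, and T and NK-like cells differed in sign (31.1 and 26.0 CPM, log2 0.26) within it. After thinning the ratios of mesenchymal-like (-0.33), endothelial-like (-1.35) and Schwann-like cells (-0.97) were within the rule.

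Cdkn2c transcripts are known to rise in cells that pass through the cycle, so the ratios were set beside those without cells that carried mitosis transcripts. The share of such cells was 7.07% of irradiated and 13.9% of control mesenchymal-like cells, 15.5% and 24.9% of keratinocyte-like cells and 1.35% and 2.46% of macrophage and monocyte-like cells. Without them the Cdkn2c ratio was -0.89 in mesenchymal-like, -1.25 in endothelial-like, -0.74 in keratinocyte-like, -1.32 in macrophage and monocyte-like and -0.92 in Schwann-like cells, each still called lower. Cluster 8 lost its call at -0.86, and it had a ratio of 0.35 after thinning with under 20 UMIs left. The tendon cell-like (-0.69) and pericyte and smooth muscle-like (-0.72) classes gained one. Cdkn2c was thus also lower, in 5 of its 6 called classes, among cells with under 2 mitosis UMIs after thinning to 2000 UMIs. The ratios themselves use unthinned counts, and such cells can carry more mitosis transcripts at full depth. The part of cell division in these ratios was not tested.

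Cdkn2d, the p19Ink4d gene, was within the rule in 11 of 12 classes. Mesenchymal-like cells held 32.6 CPM irradiated and 27.3 CPM control (log2 0.26), keratinocyte-like cells 35.1 and 42.7 CPM, and macrophage and monocyte-like cells 31.0 and 34.2 CPM, all within the rule. The highest levels were in Schwann-like cells, at 70.6 and 101 CPM, T and NK-like cells, at 91.2 and 71.8 CPM, and dendritic-like cells, at 61.3 and 79.8 CPM. Neutrophil-like cells were called lower, at 47.9 CPM irradiated and 74.9 CPM control (log2 -0.65, interval -0.92 to -0.37). That call was lost with median-of-ratios scaling (-0.33), with every cell weighted alike (-0.55) and with clusters weighted alike (-0.41).

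Within a library, cells with and without mitosis transcripts differed in which inhibitors they carried. Mitosis cells are those with at least 2 UMIs of 20 mitosis genes after thinning, and they share their library with the other cells, so these values describe the 2 libraries only. Among irradiated mesenchymal-like cells, 35 mitosis cells held 151 CPM of Cdkn1a and 460 other cells 392 CPM (log2 -1.37, interval -1.57 to -1.18). Among control cells of this class the levels were 33.1 CPM in 266 mitosis cells and 38.7 CPM in 1645 other cells. Irradiated endothelial-like cells showed the same direction, with 239 CPM in 14 mitosis cells and 631 CPM in 295 other cells, while control cells held 93.8 and 109 CPM. In the mesenchymal-like and endothelial-like classes, irradiated mitosis cells thus had less Cdkn1a than other irradiated cells, but more than either kind of control cell.

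Cdkn2c and Cdkn2d were higher in mitosis cells. Irradiated mesenchymal-like mitosis cells held 61.9 CPM of Cdkn2c and other cells 12.2 CPM (log2 2.34), and in control cells the levels were 73.8 and 22.6 CPM (log2 1.71). Cdkn2d stood at 98.7 CPM in mitosis cells and 23.6 CPM in other cells of the irradiated library (log2 2.07), and at 68.7 and 17.7 CPM in the control library (log2 1.96). Keratinocyte-like cells gave log2 ratios of mitosis over other cells of 1.79 irradiated and 1.55 control for Cdkn2c, and of 1.53 and 1.66 for Cdkn2d. Macrophage and monocyte-like cells gave a wider gap for Cdkn2c, which stood at 45.2 CPM in mitosis and 4.02 CPM in other irradiated cells, and at 109 and 10.1 CPM in control cells. Cdkn2d intervals there overlapped in irradiated cells, at 26.4 and 30.8 CPM, while control cells held 82.7 and 32.4 CPM. Cdkn2a in mesenchymal-like cells was also higher in irradiated mitosis cells, at 14.5 and 5.43 CPM (22 and 61 UMIs). In control cells its levels, 14.97 and 10.7 CPM, differed by less than 1.5-fold.

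Other members went the opposite way. Cdkn2b in keratinocyte-like cells stood at 3.27 CPM in mitosis cells and 15.3 CPM in other cells of the irradiated library (log2 -2.23), and at 3.92 and 16.7 CPM in the control library (log2 -2.10). Cdkn1c in control mesenchymal-like cells was at 43.4 CPM in mitosis and 102 CPM in other cells (log2 -1.22), and in irradiated ones at 30.3 and 42.3 CPM. Cdkn1b levels overlapped in the 2 kinds of mesenchymal-like cells, at 46.7 and 48.7 CPM irradiated and 45.1 and 49.3 CPM control.

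**Figure D4:**
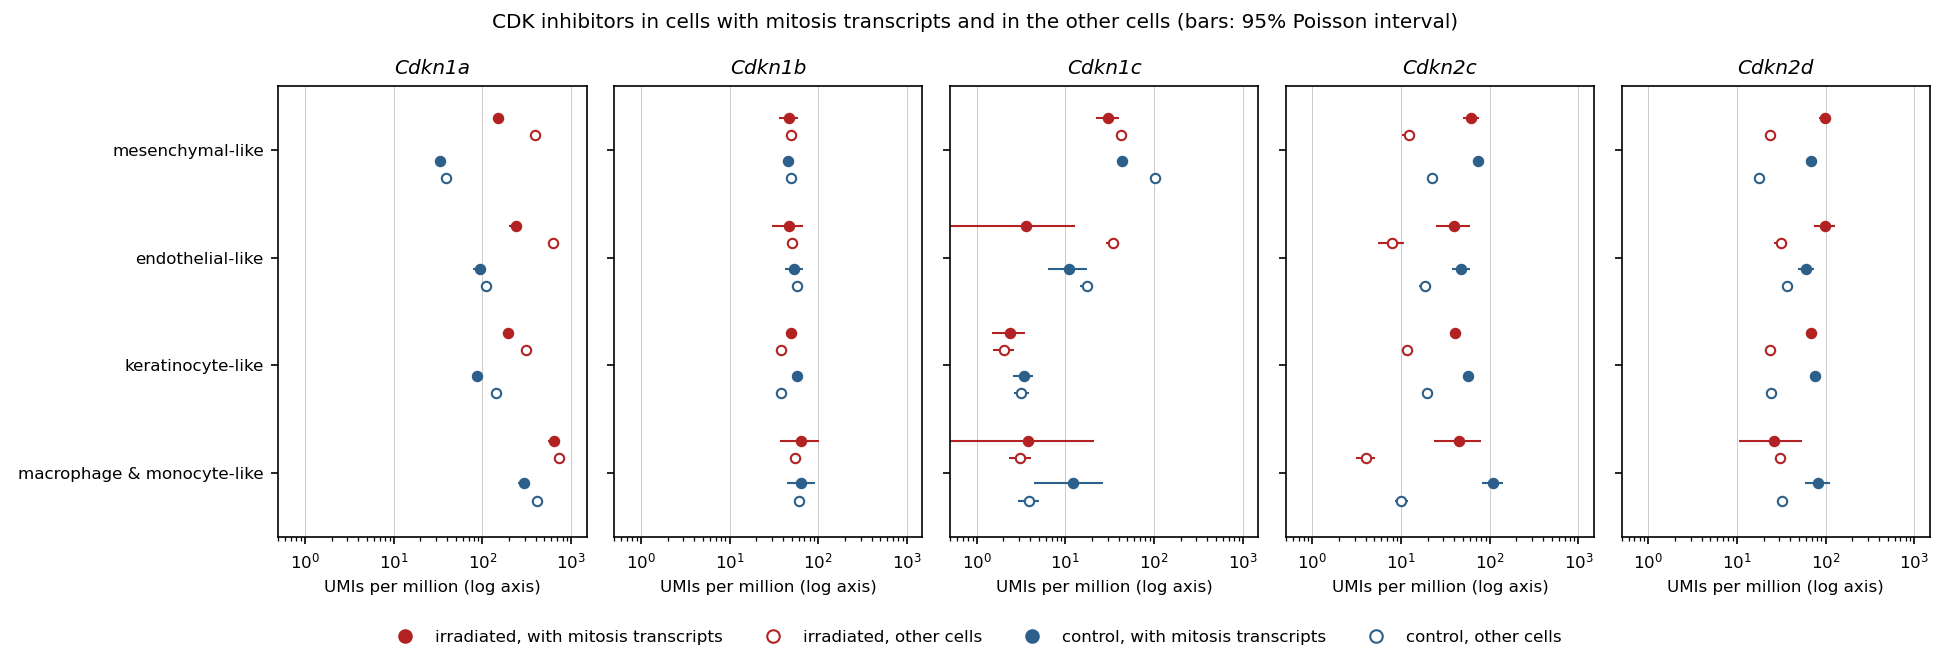
Levels of CDK inhibitors (CPM, log axis) in mitosis cells and other cells of 4 classes, in the irradiated and control libraries, with 95% Poisson intervals as bars. Cdkn2c lies to the right in mitosis cells of both libraries, at 61.9 CPM in irradiated and 73.8 CPM in control mesenchymal-like cells, while Cdkn1a lies to the left in irradiated mitosis cells of this class.

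Splitting mesenchymal-like cells by Cdkn1a itself gave the reverse view. Among irradiated cells, after thinning, the 209 with a Cdkn1a UMI held 206 CPM of the summed mitosis list and the 286 without one held 597 CPM (log2 -1.53). Among control cells the levels were 471 CPM in 131 cells with and 628 CPM in 1780 cells without (log2 -0.41). Mdm2, which encodes the ubiquitin ligase that p53 induces against itself, stood at 140 CPM in irradiated cells with Cdkn1a and 72.2 CPM in those without, and at 61.4 and 46.2 CPM in control cells. In irradiated endothelial-like cells the mitosis list stood at 575 CPM in cells with Cdkn1a and 499 CPM in those without, so the pattern was not shared by every class. Irradiated mitosis cells of that class held less Cdkn1a than its other cells, as given above. The direction there thus depended on how the cells were split, and neither direction is read from that class.

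The make-up of the inhibitors as a family shifted with these changes. Their summed level in mesenchymal-like cells was 520 CPM irradiated and 273 CPM control, and Cdkn1a made up 69.8% and 13.8% of it. Cdkn1c was the most abundant member in control mesenchymal-like cells, with 33.3% of the sum, but held 7.85% in irradiated ones. Cdkn1a made up 66.9% of irradiated and 12.3% of control inhibitor transcripts in tendon cell-like cells, 81.5% and 42.9% of those in the endothelial-like class and 72% and 47.5% of those in keratinocyte-like cells. It already held most of the sum without radiation in macrophage and monocyte-like cells, at 88.5% irradiated and 78.1% control. In T and NK-like cells Cdkn1a and Cdkn1b shared the sum, at 43.1% and 29.1% irradiated and 35.8% and 38.3% control.

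**Figure D5:**
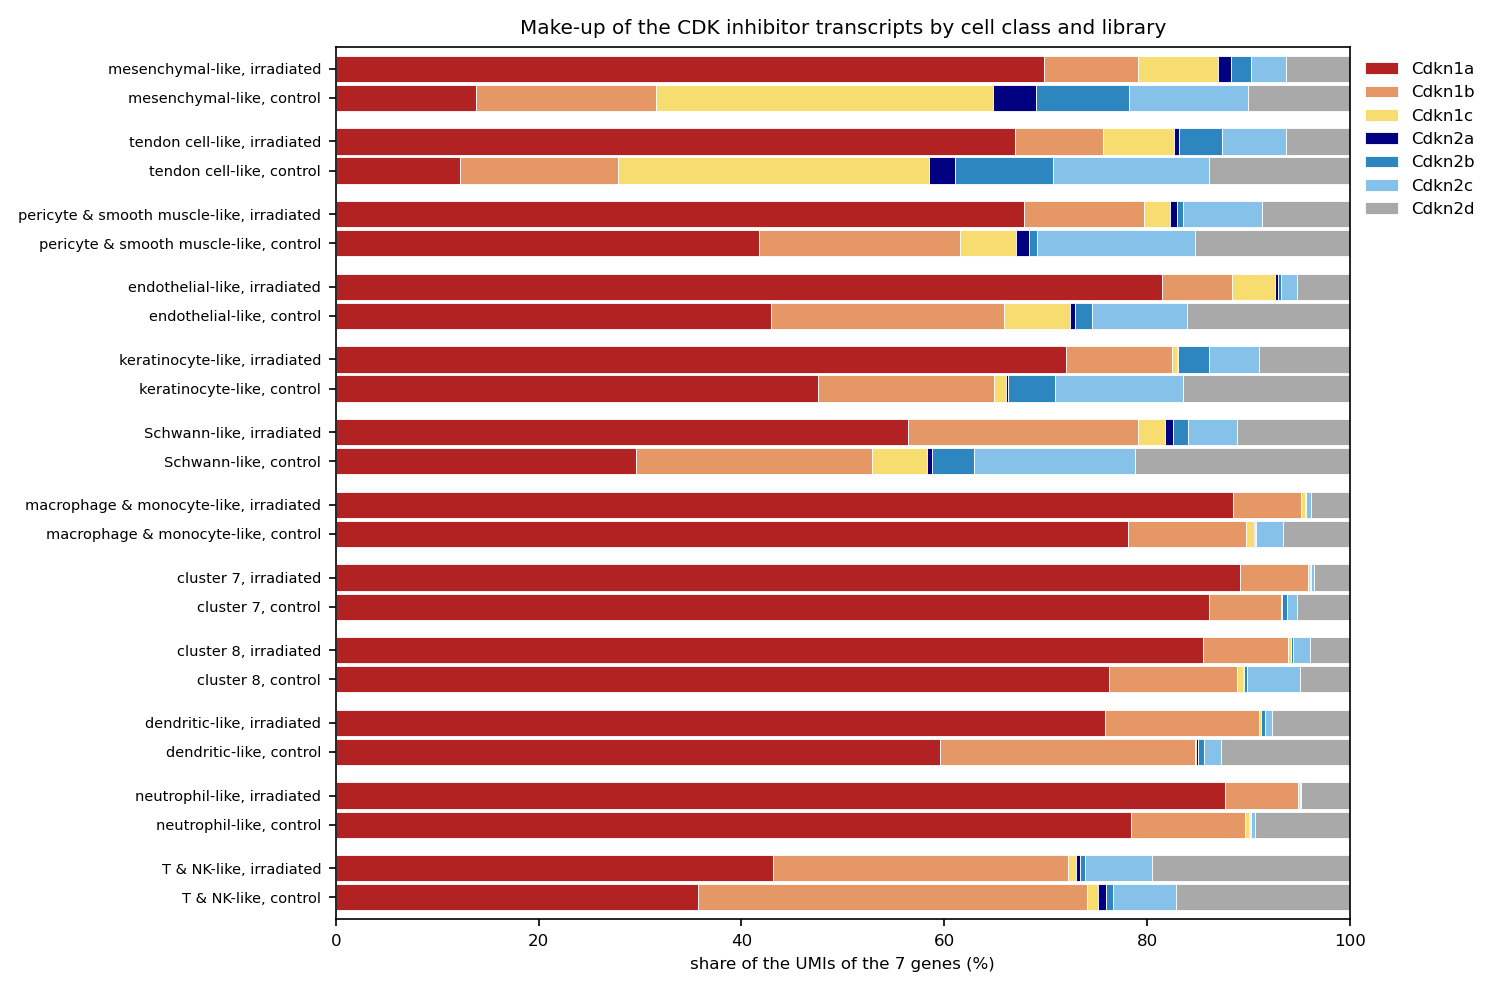
Share (%) of the UMIs of the 7 CDK inhibitor genes that each gene holds, as stacked bars starting at 0, for 12 classes with the irradiated library above the control library. The Cdkn1a part covers 69.8% of the irradiated and 13.8% of the control bar in mesenchymal-like cells and 88.5% and 78.1% in macrophage and monocyte-like cells.

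Genes around the inhibitors were counted by lists. The p53 circuit, 14 genes that p53 induces or that control it, had 9 members called higher and none lower in irradiated mesenchymal-like cells, with a median log2 ratio of 1.08 against -0.05 over all genes, of which 12.0% were called higher. Eda2r, a death receptor of the TNF receptor family, stood at 45.6 CPM irradiated and 5.90 CPM control (log2 2.95), Trp53inp1, a stress-induced partner of p53, at 68.8 and 13.8 CPM (log2 2.31), and Phlda3, an inhibitor of AKT, at 151 and 52.6 CPM (log2 1.52). In endothelial-like cells 10 were higher and none lower, led by Ccng1 and Eda2r at 2.08 each, and in keratinocyte-like cells 7 were higher and none lower, led by Eda2r at 2.30, where 9.18% and 7.35% of all genes were called higher. In macrophage and monocyte-like cells 4 of 13 measured members were higher, against 5.79% of all genes, among them Phlda3 (17.5 and 4.35 CPM) and Mdm2 (359 and 222 CPM). Neutrophil-like cells had 1 of 12 higher and 2 lower, and T and NK-like cells none higher and 1 of 12 lower. With 5.26% of all genes called higher and 22.4% lower in neutrophil-like cells, and 5.47% and 5.92% in T and NK-like cells, these counts lay near the shares of all genes. Cdkn1a is not on this list. The 3 classes with the widest Cdkn1a ratios, mesenchymal-like, tendon cell-like and endothelial-like, thus had 9 to 10 members of the list called higher, and no other class had more than 7.

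Targets of the inhibitors moved less uniformly. Of 12 cyclins and CDKs, 2 were higher and 3 lower in irradiated mesenchymal-like cells, where 12.0% of all genes were called higher and 8.07% lower, so the count of higher members was near that of genes in general. Ccnd1, a D-type cyclin, stood at 62.5 CPM irradiated and 19.7 CPM control (log2 1.67) and Ccnd2 at 183 and 109 CPM (log2 0.74), while the mitotic cyclin Ccnb2 was at 19.6 and 31.4 CPM (log2 -0.68). Ccnd2 was also higher in endothelial-like cells, at 167 and 35.6 CPM (log2 2.23), and in keratinocyte-like cells, at 232 and 71.8 CPM (log2 1.69). Ccnd2, which partners the kinases that INK4 proteins bind, was thus called higher in all 3 of these classes. In macrophage and monocyte-like cells 3 of the 12 were higher and 4 lower, against 5.79% and 11.2% of all genes, with Ccnb1 at -1.92, Ccna2 at -1.91 and Cdk1 at -1.90.

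Pocket proteins and E2F factors, which CDKs act upon, had 3 of 11 lower and none higher in mesenchymal-like cells, against 8.07% of all genes lower: the repressors E2f7 (2.35 and 7.55 CPM, log2 -1.69) and E2f8 (log2 -1.26), and Rbl1 (log2 -0.70). E2f7 and E2f8 were lower in keratinocyte-like cells too, at -0.86 and -0.81, and E2f7 in macrophage and monocyte-like cells, where 2 irradiated and 18 control UMIs were counted. In endothelial-like cells E2f6 was called higher (log2 0.62), 1 of 11 where 9.18% of all genes were. Of 10 genes for the turnover of CIP/KIP proteins, the mesenchymal-like class had 2 lower against the same 8.07%, Dtl (log2 -1.18), which directs p21 to destruction in S phase, and Skp2 (log2 -0.81), which does so for p27. Macrophage and monocyte-like cells had 3 of them lower, against 11.2% of all genes, Cdc20 (-1.40), Cks1b (-1.05) and Dtl (-0.73). Mitosis genes themselves had 8 of 20 lower and none higher in mesenchymal-like cells, 4 lower in keratinocyte-like, 1 lower in endothelial-like and 17 lower in macrophage and monocyte-like cells. The shares of all genes called lower were 6.83% in keratinocyte-like and 3.56% in endothelial-like cells, so 1 of 20 there was near the general share.

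Regulators of the Cdkn2a and Cdkn2b locus showed few calls, in numbers near those of genes in general in the mesenchymal-like class. Among 11 Polycomb and chromatin genes 1 was called higher there, where 12.0% of all genes were. This was Cbx7, a Polycomb subunit that represses the locus, at 2.35 CPM irradiated and 0.69 CPM control (30 and 35 UMIs). In endothelial-like cells Cbx7 (27.9 and 17.4 CPM) and the histone demethylase gene Kdm6b (232 and 142 CPM) were higher, against 9.18% of all genes, and none passed the rule in keratinocyte-like or macrophage and monocyte-like cells. Of 12 FOXO, SMAD, MYC and ID regulators, mesenchymal-like cells had 2 higher, again near the 12.0% of all genes, Klf4 (357 and 136 CPM, log2 1.39), a factor that can induce Cdkn1a, and Id2 (log2 0.96). Keratinocyte-like cells had Id2 (log2 1.33) and Myc (log2 0.64) higher, and endothelial-like cells Klf4 (log2 0.67). Of 3 nuclear proteins that fall in senescent cells, 1 was lower in mesenchymal-like cells, where 8.07% of all genes were. This was Lmnb1, at 31.7 and 48.3 CPM (log2 -0.61). Tendon cell-like, pericyte and smooth muscle-like and Schwann-like cells also had 1 of 3 lower, against 5.76%, 6.13% and 7.63% of all genes. None passed the rule in endothelial-like, keratinocyte-like or macrophage and monocyte-like cells, and in the last class the median log2 ratio of the 3 was 0.33.

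Genes with the most similar pattern were sought over the 24 sums of a class in a library, by Pearson correlation of log2 levels with 10 CPM added, among 9502 genes. The sums share libraries and depth, so the coefficients only describe them. Nearest to Cdkn1a were the interferon-induced genes Ifih1 (0.858) and Oasl2 (0.851) and the mRNA-decay gene Zfp36 (0.830). Cdkn1b and Cdkn2d were nearest to each other (0.8705), as the first of 3 for each. Cdkn1c lay closest to the imprinted gene Grb10 (0.9595), Cdkn2a to Dzip3 (0.910), and Cdkn2b to Ptn (0.972), which encodes the growth factor pleiotrophin. The nearest genes to Cdkn2c were Racgap1 (0.937), Cbx5 (0.926) and Prc1 (0.922), and Racgap1 and Prc1 encode proteins of the central spindle in dividing cells.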

How the data were processed

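Cells were read with 10x Genomics 3′ v3 chemistry, per the labels' protocols, after digestion with collagenase and dispase. The authors deposited unnormalised UMI counts for each gene in each barcode. Cell Ranger 5 and the mm10 build are named in the submitters' processing notes (5.0.1 per the file headers). Depths are given with the classes, and intervals cover counting error only. UMI counts were used as deposited, with no integration of libraries.

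A barcode was kept if it had 500 or more genes, 1000 or more UMIs and no more than 10% of them mitochondrial. Scrublet in scanpy 1.11.5 called 72 doublets (0.867%) at a threshold of 0.341 in the irradiated and 569 (5.00%) at 0.245 in the control library, against expected rates of 6.64% and 9.10%, and these were left out. An equal threshold of 0.25 was an alternative. Counts scaled to 10000 per cell were log-transformed, and 2000 variable genes, none of them a member, gave 30 principal components and a graph of 15 neighbours. The graph was split at resolution 1 with leidenalg 0.10.2 on igraph 0.11.9, using scikit-learn 1.9.0, pandas 2.3.3 and Python 3.11.15. The other packages were scipy 1.17.1, anndata 0.12.19, numpy 2.4.6 and matplotlib 3.10.9. Clusters were named from 19 marker lists when 3 or more markers reached 50 CPM and stood 2-fold above the median cluster, and stayed numbered where markers of another class led.

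UMIs were summed per class and library and divided by the class total. Ratio intervals are exact conditional Poisson intervals at 95%, and shares have exact Clopper-Pearson intervals. Limits for counts of 0 use 3 counts. With 1 library per group no p-value was computed. The ratio intervals and the size rule were tried on Poisson counts simulated from the pooled profile of a class. That setting holds no variation between libraries or cells, so it cannot show how the rule behaves with such variation. All 7 members are described in every class. Of each list, up to 3 genes past the rule with the widest ratios in each of 4 classes were sought, and 3 nearest genes per member. The text names only some of both, so a list gene that is not named can still be past the rule. The members and lists were chosen with earlier results of these data known. Gene positions are from GENCODE M21 and promoter sequences from RefSeq, both on GRCm38.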

Additional observations from a re-analysis of the deposited data

Results flagged for a closer look

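Cdkn1c went in opposite directions under the same contrast in different classes. The log2 ratio of irradiated over control was 0.90 in endothelial-like cells, which is 2.05 above that of mesenchymal-like cells (-1.15), 2.23 above that of tendon cell-like cells (-1.33) and 1.54 above that of keratinocyte-like cells (-0.64). With 1 library per group these differences were not tested. The endothelial-like value is 0.07 with classes drawn at the finer resolution, which leave out the Gpihbp1 part with most of the irradiated Cdkn1c UMIs (113 of 163). Of the keratinocyte-like levels, 2.10 CPM irradiated and 3.26 CPM control, free RNA was estimated to give 0.42 and 2.64 CPM.

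Barcodes that the comparisons left out also carried more Cdkn1a in the irradiated library. Those over the mitochondrial limit held 248 CPM (interval 230 to 266) in 509 irradiated barcodes and 92.6 CPM (85.8 to 99.7) in 1693 control barcodes. Called doublets that passed the other filters held 547 CPM (509 to 586) in 64 irradiated and 153 CPM (147 to 159) in 496 control barcodes. The cell types in these barcodes were not determined.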

How the results depend on the processing

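No paired analysis was possible because each group has 1 library and the labels share no replicate numbers. For Cdkn1a every alternative kept the direction, and the calls held in mesenchymal-like, endothelial-like, keratinocyte-like and macrophage and monocyte-like cells. Against 3.27, mesenchymal-like cells gave 3.07 with no cell filter and doublets kept, 3.15 with doublets kept, 3.13 with every cell weighted alike, 2.36 with clusters weighted alike and 3.16 without cluster 3. Against 2.46, endothelial-like cells gave 2.35 with a stricter filter, 2.32 with none, 2.33 with doublets kept, 2.18 at Leiden resolution 2.0 (which leaves out the Gpihbp1 part), 2.59 with every cell weighted alike and 2.32 thinned. Against 1.19, keratinocyte-like cells gave 1.34 with every cell weighted alike, 1.30 thinned and 1.11 without mitosis cells. Against 0.83, macrophage and monocyte-like cells gave 0.78 with a stricter filter, 0.76 with none, 0.77 at resolution 2.0, 0.93 with median-of-ratios scaling, 0.71 with every cell weighted alike, 0.69 thinned and 0.65 with clusters weighted alike.

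Thinned cells gave 7 lower calls in place of 14, and a 2-fold rule gave 6 higher and 9 lower. Thinning turned the direction of Cdkn1c in keratinocyte-like cells (0.70), Cdkn2b in Schwann-like cells (0.73) and Cdkn2c in cluster 8 (0.35), each with an interval that holds 0, and changed 14 of 59 calls. Cdkn1a lost its call in cluster 8 with a stricter filter (0.55), every cell alike (0.44) or no mitosis cells (0.45), and in dendritic-like cells at resolution 2.0 (0.42), every cell alike (0.49) or thinned (0.54). Leaving out mitochondrial, ribosomal and haemoglobin genes changed none of 65 calls. Settings without single clusters and with macrophage RNA subtracted were chosen after seeing the data. Cluster 7 has no value under reclustering. Causes of these shifts were not tested.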

Other observations

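Most cell groups too small to compare, or unnamed and small, also held more Cdkn1a in the irradiated library. Unnamed cluster 26, led by Igkc and Siglech (43 cells in each library), went the other way within the rule, at 110 CPM irradiated and 160 CPM control (log2 -0.53) from 38 and 46 UMIs. Lymphatic endothelial-like cells (44 irradiated and 54 control) stood at 358 CPM irradiated and 92.0 CPM control, a log2 ratio of 1.96. Melanocyte-like cells (30 and 24) stood at 375 and 76.2 CPM (log2 2.30). Their cluster was led by Cfd and Car3 and also carried fat cell markers such as Adipoq, and its mix of cells in each library was not tested. Cluster 23, unnamed and led by Fabp4 and Rgs5, had 1242 and 202 CPM (log2 2.62), which is the highest irradiated level among the groups given here. In melanocyte-like cells Cdkn1c went the other way, with 11.7 CPM irradiated and 194 CPM control from 5 and 56 UMIs, while cluster 23 had 92.0 and 23.0 CPM of it.

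In control endothelial-like cells, after thinning, the mitosis list stood at 234 CPM in 97 cells with a Cdkn1a UMI and 721 CPM in 388 cells without one (log2 -1.62). In irradiated cells of that class it stood at 575 CPM in 186 cells with and 499 CPM in 123 cells without (log2 0.21). Split by mitosis transcripts instead, irradiated cells of that class had less Cdkn1a in mitosis cells. Keratinocyte-like cells had less of the list in cells with Cdkn1a in both libraries, at 668 and 999 CPM irradiated (log2 -0.58) and 810 and 1367 CPM control (log2 -0.75). Why the classes differ was not tested.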
